A study of Mus musculus with 10 samples.

Results

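The genes described here are 10 genes of transforming growth factor beta (TGF-beta) activation and response. They were chosen by name, with earlier results of these data known, and matched by Ensembl identifier among the 53379 genes counted in each library. They are the ligands Tgfb1 and Tgfb3, the activating integrin chains Itgav and Itgb8, the latent ligand carrier Ltbp3, the receptors Tgfbr1 and Tgfbr2, the signal transducer Smad3, the inhibitor Smad7 and the retinoic acid enzyme Aldh1a2. Of the 10, 9 passed the filter on low counts and entered the tests, and Itgb8 did not. RNA was sequenced from dendritic cells sorted from the spleens of individual C57BL/6 mice aged 16 weeks, in a study of autophagy-deficient subsets in a model of atherogenesis. The mice were wild type (WT, Atg16l1 +/+) or knockout (KO, Atg16l1 -/-) for Atg16l1, which encodes a scaffold needed to attach LC3 to autophagosome membranes. By the labels, cells with much MHC class II and CD11c were separated into CD11b+CD8- and CD11b-CD8+ fractions, so there were 4 groups, called CD11b WT and CD8 WT (n = 3 each) and CD11b KO and CD8 KO (n = 2 each). Which part of Atg16l1 was deleted, and whether in all cells, is not stated in the labels used here.

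Atg16l1 itself was counted at 13.3 to 32.7 per 1000000 gene counts (CPM) in 6 WT libraries but only at 1.73 to 3.31 CPM in 4 KO libraries, so the genotype labels matched in 10 of 10 libraries. The subset labels did not match. All 10 markers of type 1 conventional dendritic cells (cDC1, the CD8-bearing subset) passed the test as higher at the label CD11b in WT, and their summed level was 9805 to 10638 CPM there against 2641 to 3024 CPM at the label CD8. All 10 markers of type 2 cells (cDC2, the CD11b-bearing subset) were lower at the label CD11b in WT, with sums of 85.2 to 89.8 CPM against 1262.5 to 1506 CPM. The libraries are therefore called by their labels, and no direction that follows names the subset that was sorted. Library totals were 9467704 to 13768884 gene counts, so 1 count was worth 0.0754 to 0.108 CPM.

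TGF-beta is made as a dimer folded inside its own propeptide, the latency-associated peptide, which keeps it from binding its receptors. Latent TGF-beta is held in the matrix by carriers such as LTBP3 or on cell surfaces by GARP, and it is released when an alpha V integrin, above all alpha V beta 8 on dendritic cells, binds an arginine-glycine-aspartate site in the propeptide. The free ligand joins the receptors TGFBR2 and TGFBR1, which phosphorylate SMAD2 and SMAD3. These enter the nucleus with SMAD4, while SMAD7, itself induced by the signal, blocks the receptor. In naive T cells the signal induces Foxp3, and retinoic acid, made from retinal by dendritic cells that express Aldh1a2, strengthens that induction. Regulatory T cells made in this way restrain inflammation, including that of the atherosclerotic artery.

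The integrin site is the feature that both ligands of the set share, and its coding sequence is shown to compare them. In GENCODE transcripts of build GRCm38 the Tgfb1 site lies in exon 5 at chr7:25697142-25697150 on the plus strand, and the Tgfb3 site in exon 5 at chr12:86062165-86062173 on the minus strand. Capitals mark the codons for arginine, glycine and aspartate, with 30 coding bases on each side.
Tgfb1: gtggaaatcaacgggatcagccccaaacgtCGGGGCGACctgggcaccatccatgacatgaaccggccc
Tgfb3: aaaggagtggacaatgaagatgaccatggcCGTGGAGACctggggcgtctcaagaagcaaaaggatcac
Each coding sequence held 1 such run of codons in frame, after 243 of 390 codons in Tgfb1 and after 260 of 412 in Tgfb3. Over the 69 bases shown, 28 (40.6%) were identical. The site was present in both ligands, while their transcripts were measured at very different levels.

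Levels can be compared between genes only per length, so CPM was also divided by exon length in kilobases (RPKM). Tgfb1 was the most abundant of the 10 genes in every library, with a mean over all libraries of 66.9 RPKM. Smad7 was second in every library (37.0 RPKM) and Tgfbr2 came next (13.5 RPKM). Itgav (8.65 RPKM), Smad3 (7.19 RPKM) and Tgfbr1 (5.91 RPKM) followed. Their order changed between libraries, with ranks of 4 to 5, 4 to 6 and 5 to 7, so these neighbours were not separated beyond their spread. Aldh1a2 had a mean of 3.63 RPKM, Tgfb3 of 1.24 RPKM and Ltbp3 of 0.265 RPKM. Itgb8 was last in every library, with a mean of 0.0175 RPKM. The dendritic cells of all 4 groups thus held transcripts of a ligand, both receptors and both Smads, and few of the beta 8 chain.

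**Figure D1:**
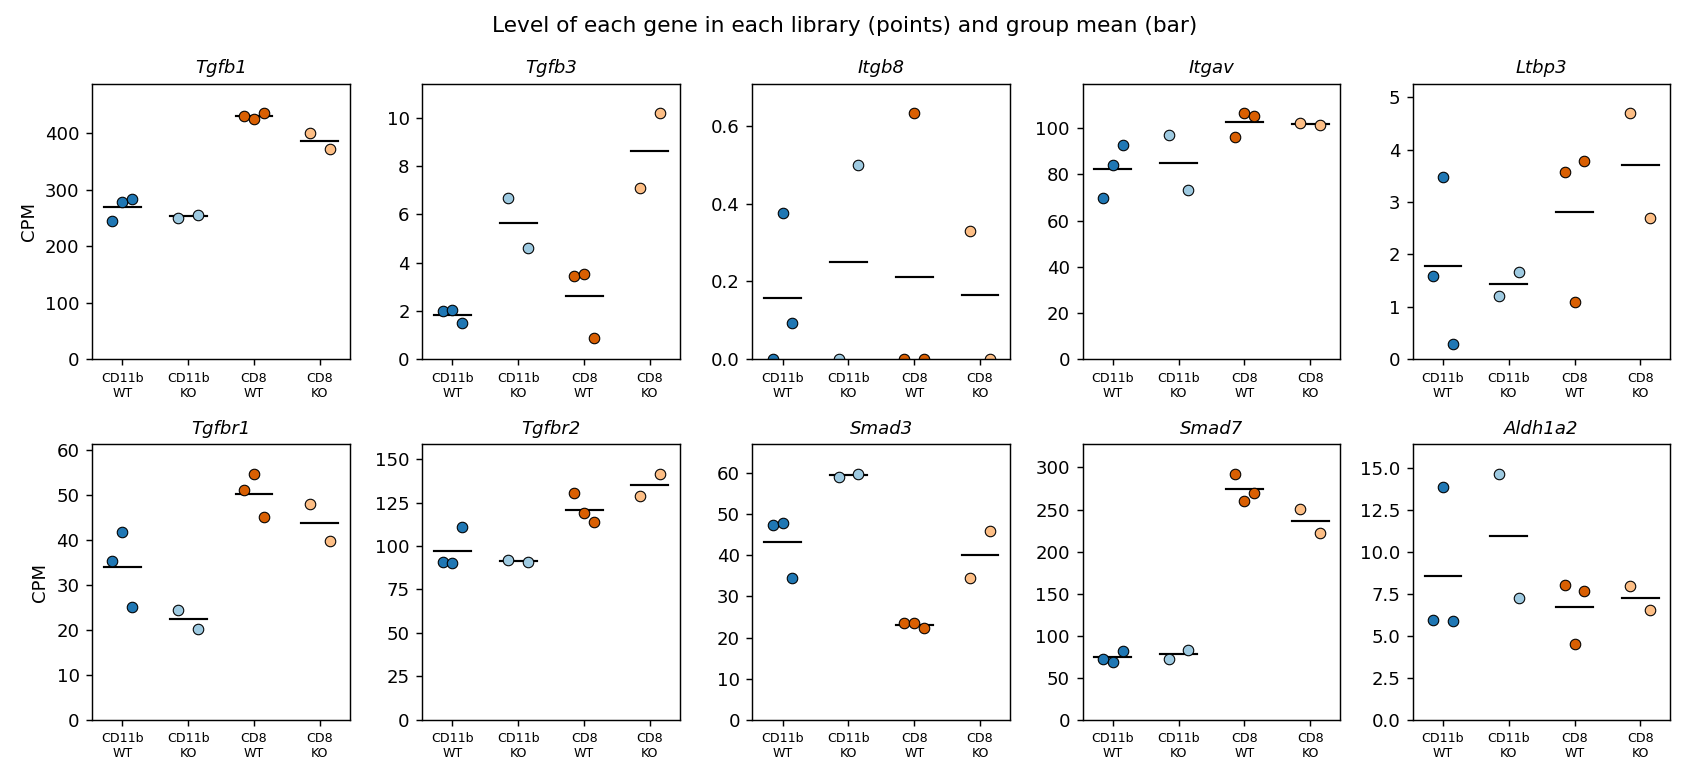
Level of each of the 10 genes in each of the 10 libraries in CPM on a linear axis that starts at 0, with points for libraries, a bar for the group mean, and labels as deposited. The CD8 points of Tgfb1 and Smad7 all lie above the CD11b points, those of Smad3 lie below them within each genotype, and the KO points of Tgfb3 all lie above the WT points.

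Comparing the label CD11b with the label CD8 in WT asks how the sorted subsets of normal mice differ in this pathway. Smad7, Tgfb1 and both receptors were lower at the label CD11b, and Smad3 was higher. The largest difference was that of Smad7, 3.69-fold, and the smallest of those called was that of Tgfbr2, 1.24-fold. Of the 9 genes tested, 5 were called at a Benjamini-Hochberg adjusted p under 0.05 in edgeR's quasi-likelihood test, 1 higher and 4 lower. Of all 14528 genes tested 29.5% were called, 13.8% higher and 15.7% lower. The median log2 fold change of the 9 was −0.50, against 0.0032 over all genes tested. In libraries of bulk RNA, fewer cells of a type and less RNA per cell cannot be told apart. The labels name individual mice as the source but do not say which libraries share a mouse. The comparisons of labels and of genotypes that follow use the same 10 libraries.

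Of the ligands, Tgfb1 (ENSMUSG00000002603, chromosome 7, 25687002 to 25705077) encodes the main TGF-beta of immune cells. It stood at 244, 278 and 283 CPM in CD11b WT and at 430.05, 424 and 436 CPM in CD8 WT. Every CD8 library was above every CD11b library. The log2 fold change, label CD11b minus label CD8, was −0.68 ± 0.09 (SE; edgeR adjusted p = 1.08e-06). In KO the values were 249.8 and 256 CPM at the label CD11b and 401 and 373 CPM at the label CD8, again without overlap, and the log2 fold change was −0.61 ± 0.11 (SE; edgeR adjusted p = 9.02e-05). Tgfb3 (ENSMUSG00000021253, chromosome 12, 86056745 to 86079041), a second isoform with the same integrin site, was low, at 1.97, 2.04 and 1.49 CPM in CD11b WT and 3.46, 3.53 and 0.852 CPM in CD8 WT. The groups overlapped, and the log2 fold change of −0.50 had a 95% confidence interval of −1.58 to 0.57 (edgeR adjusted p = 0.533).

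Of the genes that handle latent ligand, Itgav (ENSMUSG00000027087, chromosome 2, 83724397 to 83806916) encodes the alpha V chain of all alpha V integrins. It stood at 69.7, 84.1 and 92.8 CPM in CD11b WT and at 96.3, 107 and 106 CPM in CD8 WT. The groups did not overlap, as in 41.5% of all genes tested, but the log2 fold change of −0.32 ± 0.13 (SE) missed the threshold (edgeR adjusted p = 0.058). Itgav was called in 6 of the alternatives tried in WT, among them limma-voom (limma adjusted p = 0.0357) and the fit without CD11b WT 3 (edgeR adjusted p = 0.0293). Ltbp3 (ENSMUSG00000024940, chromosome 19, 5740904 to 5758532) stood at 0.279 to 3.47 CPM in CD11b WT and at 1.09 to 3.79 CPM in CD8 WT, with a log2 difference of −0.64 and an interval of −2.16 to 0.88 (edgeR adjusted p = 0.584).

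Itgb8 (ENSMUSG00000025321, chromosome 12, 119158022 to 119238802) encodes the beta 8 chain. It had 23 counts in all 10 libraries together and 0 counts in 5 of them. The counts were 0, 5 and 1 in CD11b WT, 0 and 6 in CD11b KO, 0, 7 and 0 in CD8 WT, and 4 and 0 in CD8 KO. Libraries of 1 group thus differed as much as libraries of different groups. Summed over a group, the level was 0.161 CPM in CD11b WT (exact 95% Poisson interval 0.0592 to 0.351), 0.274 CPM in CD11b KO (0.100 to 0.596), 0.227 CPM in CD8 WT (0.0912 to 0.467) and 0.169 CPM in CD8 KO (0.0461 to 0.434). These intervals cover counting error only, and they all overlap, so a difference between groups was not detectable at this depth.

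Of the other chains that pair with alpha V, Itgb1, Itgb3 and Itgb5 had means over all libraries of 75.9, 5.11 and 1.66 RPKM, above that of Itgb8. Itgb6 had a mean of 0.0299 RPKM from 24 counts in 3 of the libraries and was not separated from Itgb8. Itgb1, which also pairs with many other alpha chains, was higher at the label CD11b in WT (by 0.62 ± 0.11 on the log2 scale, SE, edgeR adjusted p = 5.84e-05). Itgb3 ranged from 5.66 to 9.21 CPM under the label CD11b versus 50.5 to 55.5 CPM under the label CD8, and its log2 fold change in WT was −2.89 ± 0.20 (SE; edgeR adjusted p = 3.36e-11). Itgb3 is also on the list of 10 platelet and megakaryocyte markers. Of the others, Pf4, Ppbp, Gp9, Gp1bb, Gp6 and Treml1 stood at 0 to 0.543 CPM over the 10 libraries. Clec1b ranged from 3.26 to 6.71 CPM under the label CD11b versus 2.08 to 5.62 CPM under the label CD8, Itga2b at 1.31 to 3.19 against 0.634 to 1.14 CPM, and Tubb1 at 0 to 0.605 against 0.523 to 1.63 CPM. The part of platelets in the level of Itgb3 was not tested. GARP, the surface holder of latent TGF-beta encoded by Lrrc32, was at 72.9 to 86.7 CPM at the label CD11b versus 10.1 to 18 CPM at the label CD8 (log2 fold change in WT 2.36 ± 0.18 SE, edgeR adjusted p = 1.87e-10). The plot of alpha V partner chains shows these levels by library.

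**Figure D2:**
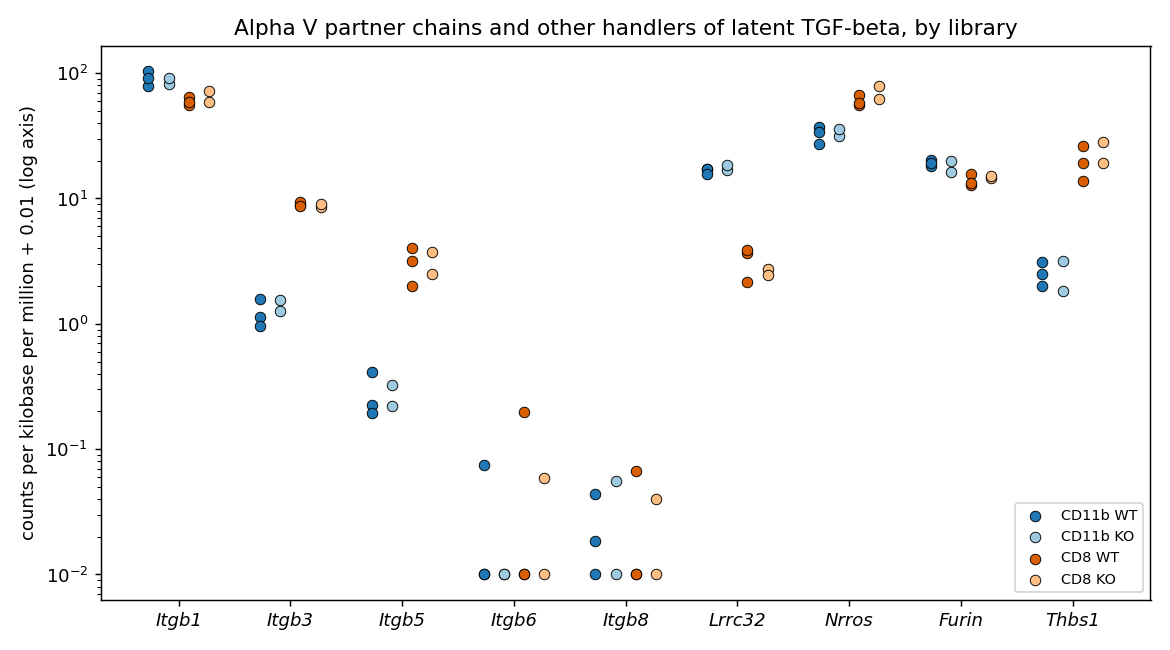
Level in RPKM, with 0.01 added and drawn on a log axis, of the alpha V partner chains Itgb1, Itgb3, Itgb5, Itgb6 and Itgb8 and of 4 further genes that hold, cut or activate latent TGF-beta, with 1 point per library coloured by group. Itgb8 and Itgb6 lie at the bottom in all groups, Itgb3, Itgb5 and Thbs1 are higher in the libraries labelled CD8, and Lrrc32 is higher in those labelled CD11b.

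Both receptor genes were lower at the label CD11b. Tgfbr1 (ENSMUSG00000007613, chromosome 4, 47353222 to 47414931), the type I receptor kinase that phosphorylates SMAD3, stood at 35.3, 41.9 and 25.0 CPM in CD11b WT and at 51.2, 54.8 and 45.2 CPM in CD8 WT. The ranges did not touch, and the log2 fold change was −0.56 ± 0.18 (SE; edgeR adjusted p = 0.0175). The call ended without CD11b WT 3, its lowest library (edgeR adjusted p = 0.118), and without CD8 WT 2, its highest (0.0907). In KO the values were 24.5 and 20.2 CPM against 48.0 and 39.8 CPM, with a log2 difference of −0.98 ± 0.22 (SE; edgeR adjusted p = 0.00175). Tgfbr2 (ENSMUSG00000032440, chromosome 9, 116084293 to 116175360), the receptor that binds the ligand first, stood at 90.7, 90.4 and 111 CPM in CD11b WT and at 130.3, 119 and 114 CPM in CD8 WT. The gap between the groups was small, 111 against 114 CPM, and the call (log2 value −0.31, SE 0.11, adjusted p = 0.037 in edgeR) rested on several libraries. Leaving out 1 of 5 libraries ended the call: CD11b WT 1 (edgeR adjusted p = 0.125), CD11b WT 2 (0.127), CD8 WT 1 (0.155), CD8 WT 2 (0.0823) and CD8 KO 2 (0.0503). In KO the separation was wider, at 92.0 and 90.6 CPM against 129 and 142 CPM (log2 fold change −0.56 ± 0.14 SE, edgeR adjusted p = 0.00327).

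The 2 Smad genes went in opposite directions. Smad3 (ENSMUSG00000032402, chromosome 9, 63646767 to 63757994), which carries the signal to the nucleus, stood at 47.3, 48.0 and 34.5 CPM in CD11b WT and at 23.5, 23.4 and 22.3 CPM in CD8 WT. The 3 CD8 libraries lay close together and below every CD11b library. The log2 value was 0.91 ± 0.16 (SE; edgeR adjusted p = 0.000125), or 1.87-fold higher. In KO it was at 59.1 and 59.8 CPM against 34.4 and 45.9 CPM, a log2 difference of 0.57 ± 0.20 (SE; edgeR adjusted p = 0.0386). That call ended without CD11b KO 1 (edgeR adjusted p = 0.114), CD11b KO 2 (0.129) or CD8 KO 1 (0.349), each of which leaves 1 library in a group.

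Smad7 (ENSMUSG00000025880) encodes the inhibitory Smad that targets the receptor. It stood at 72.7, 68.2 and 81.9 CPM in CD11b WT and at 292, 260.1 and 270.1 CPM in CD8 WT. Its log2 fold change was −1.88 ± 0.11 (SE; edgeR adjusted p = 1.65e-12). In KO the values were 72.2 and 83.2 CPM against 251 and 222 CPM, and the log2 fold change was −1.61 ± 0.13 (SE; edgeR adjusted p = 1.34e-09). The ratio of Smad7 to Smad3 in RPKM, given as a description with no test, was 2.18 ± 0.638 (SD, n = 3) in CD11b WT, 1.60 ± 0.147 (SD, n = 2) in CD11b KO, 14.5 ± 0.847 (SD, n = 3) in CD8 WT and 7.43 ± 2.14 (SD, n = 2) in CD8 KO. The libraries labelled CD8 thus held more inhibitor for each transducer transcript, and the KO libraries of that label lay between CD8 WT and the label CD11b.

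**Figure D3:**
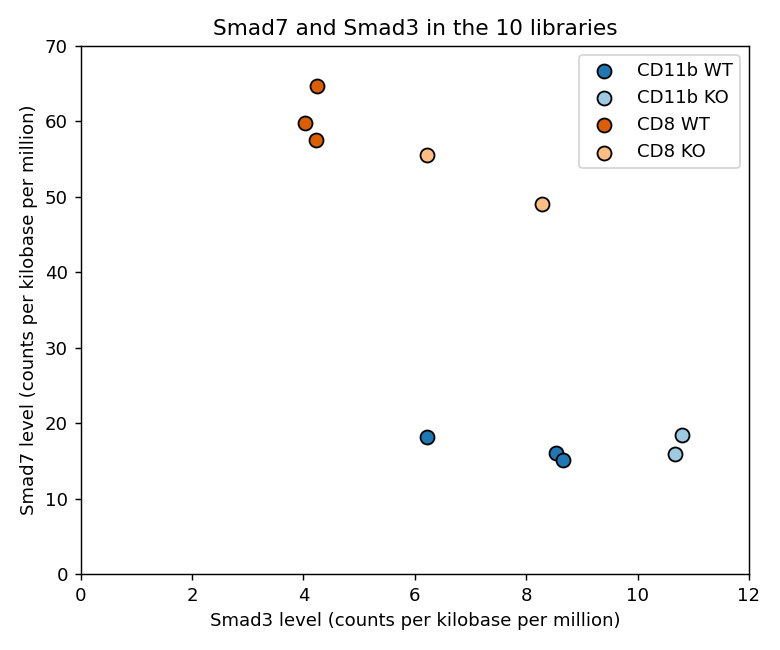
Level of Smad7 against level of Smad3, both in RPKM on linear axes from 0, with 1 point per library coloured by group. The CD8 WT libraries sit at the upper left, the CD8 KO libraries lie to their right and lower, and the libraries labelled CD11b lie along the bottom, with CD11b KO at the right.

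Aldh1a2 (ENSMUSG00000013584, chromosome 9, 71215789 to 71296243), the retinal dehydrogenase that makes retinoic acid, did not separate the labels. It stood at 5.92, 13.9 and 5.86 CPM in CD11b WT, 14.6 and 7.25 CPM in CD11b KO, 7.99, 4.53 and 7.66 CPM in CD8 WT, and 7.99 and 6.53 CPM in CD8 KO. CD11b WT 2 and CD11b KO 1 were the highest libraries, and the others overlapped. The log2 fold change of label CD11b minus label CD8 was 0.35 in WT (95% interval −0.44 to 1.15, edgeR adjusted p = 0.561) and 0.59 in KO (−0.38 to 1.55, edgeR adjusted p = 0.441).

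In KO as a whole, 5 of the 9 genes tested were called between the labels, 1 higher and 4 lower. Of all genes tested 22.8% were called, 10.3% higher and 12.5% lower. These were Tgfb1, Tgfbr1, Tgfbr2, Smad3 and Smad7, the 5 called in WT and in the same directions. The WT and KO libraries of this comparison are separate, but all groups share 1 estimate of the spread. Groups did not overlap in 58.7% of all genes tested in KO, where each group had 2 libraries. Tgfb3 (log2 fold change −0.62, edgeR adjusted p = 0.542), Itgav (−0.26, 0.267) and Ltbp3 (−1.35, 0.345) were not called there.

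Markers of other cells also differed between the labels. The summed level of 10 B cell markers was 273 to 609 CPM at the label CD11b and 365 to 2392 CPM at the label CD8, and 6 of 10 in WT and 9 of 10 in KO were lower at the label CD11b. That of 10 red pulp macrophage markers was 148 to 203 CPM against 259 to 439 CPM, with 6 of 10 lower and 1 higher in WT. Adgre1 made up much of this gap, with WT means of 2.90 against 113 CPM. The WT means of Spic (18.8 against 13.7 CPM), Hmox1 (74.0 against 45.7 CPM) and Vcam1 (39.8 against 38.0 CPM) were not lower at the label CD11b. None of the B cell markers was at 0 in any library, and Vsig4 of the macrophage list was at 0 in some libraries of both labels. The 10 plasmacytoid dendritic cell markers summed to 261 to 345 CPM at the label CD11b and 289 to 371 CPM at the label CD8, with 4 higher and 2 lower at the label CD11b in WT and 3 higher and 2 lower in KO. Of these, Siglech was at 13.1 to 33.6 CPM against 0.576 to 2.37 CPM, and Klk1 was at 0 in all libraries labelled CD8. Spib and Tcf4 went the other way, at 6.71 to 16.3 against 38.8 to 64.4 CPM and at 44.1 to 70.7 against 74.6 to 97.3 CPM. The part of these cells in the differences of the TGF-beta genes was not tested. Without CD8 KO 2, the library with the most B cell transcripts, the group CD8 KO rested on CD8 KO 1 alone. The log2 fold change in KO was then −1.69 for Smad7, −0.66 for Tgfb1, −1.10 for Tgfbr1, −0.49 for Tgfbr2 and 0.80 for Smad3. CD8 KO 1 itself had a B cell marker sum of 823 CPM, so this fit does not test the part of B cells.

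**Figure D4:**
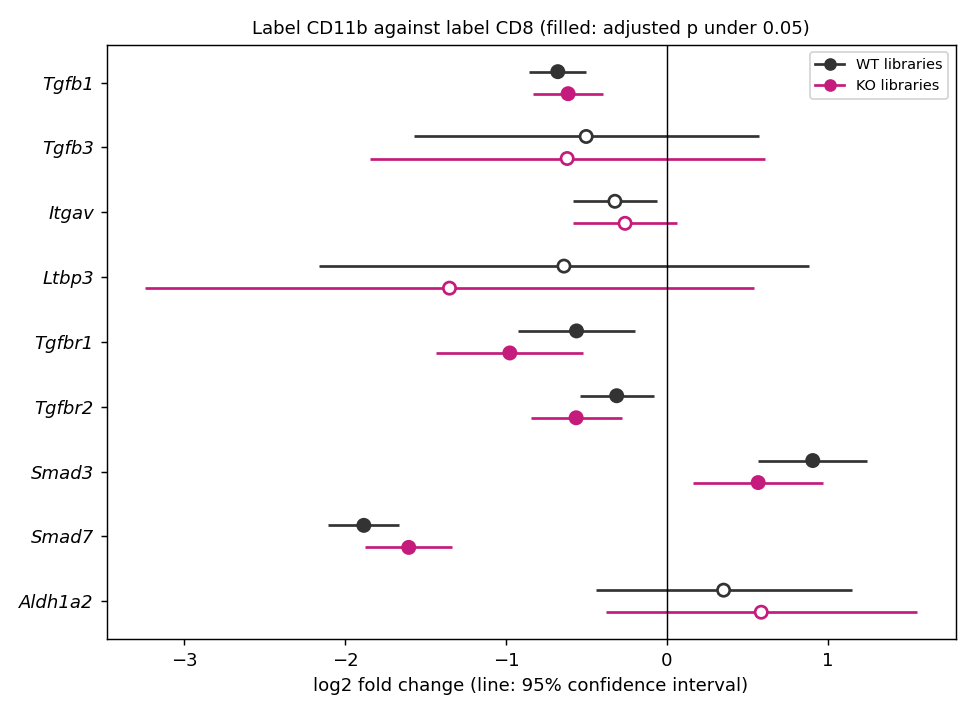
Log2 fold change of label CD11b minus label CD8 for the 9 genes tested, in WT (black) and KO (magenta), with lines for 95% confidence intervals of the edgeR fit and filled points for an adjusted p under 0.05. Tgfb1, Tgfbr1, Tgfbr2 and Smad7 are filled to the left of 0 and Smad3 to the right in both genotypes, and Tgfb3, Itgav, Ltbp3 and Aldh1a2 are open.

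The promoters of genes that differed between the labels, Smad3 upwards and the others downwards at the label CD11b, are shown so that their sequences can be compared. A RefSeq table of GRCm38.p6 held an upstream sequence for 8 of the 10 genes, all but Tgfb3 and Smad7. The gene with the largest difference between the labels, Smad7, is therefore missing from this comparison. Those of Tgfb1, Tgfbr1, Tgfbr2 and Smad3 are printed as the 250 bases before the start, 5′ to 3′ on the gene's strand. Capitals mark GC boxes, GGGCGG on either strand. The windows are chr7:25686752-25687001 (plus) for Tgfb1, chr4:47352972-47353221 (plus) for Tgfbr1, chr9:116175364-116175613 (minus) for Tgfbr2 and chr9:63757995-63758244 (minus) for Smad3.
Tgfb1: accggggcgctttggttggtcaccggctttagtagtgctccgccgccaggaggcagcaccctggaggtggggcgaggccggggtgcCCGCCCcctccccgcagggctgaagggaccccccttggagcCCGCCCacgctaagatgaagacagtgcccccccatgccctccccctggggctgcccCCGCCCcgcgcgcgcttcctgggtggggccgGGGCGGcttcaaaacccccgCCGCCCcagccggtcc
Tgfbr1: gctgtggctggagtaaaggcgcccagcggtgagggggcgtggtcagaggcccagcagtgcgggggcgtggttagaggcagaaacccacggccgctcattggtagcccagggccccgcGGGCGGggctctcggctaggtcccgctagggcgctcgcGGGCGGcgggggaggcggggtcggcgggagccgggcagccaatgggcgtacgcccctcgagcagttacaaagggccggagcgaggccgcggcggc
Tgfbr2: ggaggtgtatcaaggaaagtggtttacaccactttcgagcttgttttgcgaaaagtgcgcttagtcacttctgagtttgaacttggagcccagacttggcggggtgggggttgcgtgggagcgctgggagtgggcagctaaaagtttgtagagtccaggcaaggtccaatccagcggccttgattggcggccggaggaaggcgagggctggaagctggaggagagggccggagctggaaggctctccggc
Smad3: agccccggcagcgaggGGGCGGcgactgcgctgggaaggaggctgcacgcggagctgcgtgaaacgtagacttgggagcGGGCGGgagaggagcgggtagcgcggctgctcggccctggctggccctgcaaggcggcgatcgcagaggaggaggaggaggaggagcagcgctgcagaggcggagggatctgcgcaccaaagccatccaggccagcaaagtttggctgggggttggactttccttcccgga
The G and C content was 75.2% for Tgfb1, 74.8% for Tgfbr1, 58.4% for Tgfbr2 and 69.2% for Smad3, against a mean of 53.2% over 32851 promoter windows of the same length. A GC box was found 5 times for Tgfb1, 2 times each for Tgfbr1 and Smad3 and not for Tgfbr2, and 32.7% of all windows held at least 1. The Smad box CAGAC, searched on both strands, was found 1 time each for Tgfbr2, Itgb8 and Ltbp3 and in 42.2% of all windows. The Smad palindrome GTCTAGAC (0.167% of all windows), the AP-1 site TGANTCA (6.75%) and the interferon-stimulated response element (2.98%) were not found in the windows of the 8 genes. None of these motifs contains another. GC boxes were thus found both in genes lower and in the gene higher at the label CD11b.

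The other genes of the pathway were read from 7 lists chosen by function, 125 genes in all, of which 106 were tested. In WT, 67 of the 106 were called between the labels, 22 higher and 45 lower at the label CD11b, and in KO 53 were called, 19 higher and 34 lower. These compare with 29.5% and 22.8% of all genes tested. The lists were chosen with earlier results of these data known, so the shares are a description and do not test for an excess.

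Of 13 ligand and activation genes tested, 4 were higher and 6 lower in WT. Besides Itgb3 and Lrrc32, Thbs1, which encodes the TGF-beta activator thrombospondin 1, ranged from 11 to 19.2 CPM under the label CD11b versus 83.2 to 172 CPM under the label CD8 (log2 fold change in WT −2.97 ± 0.23 SE, edgeR adjusted p = 2.79e-10). Ltbp2, a matrix protein of the latent carrier family, had 3.44 ± 0.36 (SE; edgeR adjusted p = 5.02e-08). The list held genes that activate or hold the ligand in both directions.

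Of 16 receptor and Smad genes, 2 were higher and 5 lower in WT. Acvrl1, a type I receptor for BMP9 and TGF-beta, was higher (log2 fold change 2.66 ± 0.17 SE, edgeR adjusted p = 1.56e-11). Smad4, the shared partner of SMAD3, ranged from 74.2 to 82.3 CPM under the label CD11b versus 118 to 162 CPM under the label CD8 (−0.86 ± 0.11 SE, edgeR adjusted p = 1.20e-06). Acvr2a and Bmpr2, receptors for activins and for bone morphogenetic proteins, had −1.25 and −0.43 (edgeR adjusted p = 0.000599 and 0.0106).

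Of 14 genes that restrain the signal or turn over its parts, 4 were higher and 6 lower in WT. Pmepa1, a target gene whose product sequesters SMAD2 and SMAD3, ranged from 23.1 to 39.3 CPM under the label CD11b versus 5.08 to 11.7 CPM under the label CD8 (log2 fold change in WT 2.14 ± 0.23 SE, edgeR adjusted p = 1.04e-07). The nuclear corepressor gene Tgif2 went the other way (−1.77 ± 0.19 SE, edgeR adjusted p = 1.22e-07). Usp15, a deubiquitinase of the receptor, had 0.61 and Smurf2, a ubiquitin ligase that works with SMAD7, −0.66 (edgeR adjusted p = 0.000449 and 0.00069). Smad7 and Pmepa1, which both restrain the signal to SMAD3, thus lay in opposite directions.

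Of 17 genes known to respond to TGF-beta, 1 was higher and 11 lower in WT, and 1 higher and 7 lower in KO. The list's median log2 fold change in WT was −1.18, against 0.0032 over all genes tested. Axl, a receptor tyrosine kinase that TGF-beta induces in Langerhans cells, ranged from 7.57 to 13.1 CPM under the label CD11b versus 50.4 to 80.3 CPM under the label CD8 (−2.75 ± 0.19 SE, edgeR adjusted p = 4.58e-11). The cell cycle inhibitor gene Cdkn1a had −2.09 ± 0.14 and the lymphotoxin beta gene Ltb −3.43 ± 0.24 (edgeR adjusted p = 5.27e-11 and 7.79e-11). Id2, a transcriptional regulator that cDC1 require, was higher (1.78 ± 0.13 SE, edgeR adjusted p = 6.51e-11). All of these genes have other inducers.

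Of 14 retinoic acid genes, 2 were higher and 6 lower in WT. The receptor gene Rxra ranged from 39.7 to 60.7 CPM under the label CD11b versus 13.1 to 22.0 CPM under the label CD8 (1.36 ± 0.20 SE, edgeR adjusted p = 8.19e-06). Rarg, another retinoic acid receptor, had −2.63 ± 0.46 (edgeR adjusted p = 7.40e-05) and Ppard, a receptor for fatty acids, −0.91 ± 0.19 (edgeR adjusted p = 0.000602). Dhrs9, a retinol dehydrogenase, had 1.38 ± 0.32 (edgeR adjusted p = 0.00187). Aldh1a1, which makes retinoic acid like Aldh1a2, was at 0 to 0.152 CPM and was not tested.

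Of 19 genes by which dendritic cells act on regulatory T cells, 5 were higher and 7 lower in WT. Btla, whose product engages HVEM on T cells, ranged from 270.3 to 334 CPM under the label CD11b versus 59.8 to 77.3 CPM under the label CD8 (2.25 ± 0.11 SE, edgeR adjusted p = 1.18e-13). Itgae, the CD103 chain, had 5.96 ± 0.35 (edgeR adjusted p = 2.85e-12) and is also on the list of cDC1 markers. Cd274 and Icosl, which encode the PD-1 ligand PD-L1 and the ligand of ICOS, had −1.18 ± 0.12 and −1.17 ± 0.14 (edgeR adjusted p = 2.05e-08 and 4.51e-07). Of 13 other integrin chains, 4 were higher and 4 lower in WT, with Itga3 at 3.90 ± 0.19, Itga8 at 3.14 ± 0.21, Itga6 at 1.95 ± 0.25 and Itgb7 at −1.08 ± 0.13 (SE; edgeR adjusted p = 8.40e-14, 3.42e-11, 1.72e-06 and 3.19e-07).

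The effect of the Atg16l1 knockout was first read under the label CD11b. None of the 9 genes passed the test. Tgfb3 and Smad3 had higher values in both KO libraries than in all WT libraries, and Tgfbr1 lower ones. With edgeR, 0 of 9 were called, against 0.145% of all genes tested (21 genes), with 3 at an unadjusted p under 0.05. DESeq2 and limma-voom also called 0 of 9. In 20.5% of all genes tested the groups did not overlap.

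Tgfb3 stood at 6.66 and 4.58 CPM in CD11b KO, from 121 counts, against 1.49 to 2.04 CPM in CD11b WT, from 69 counts. Its log2 fold change was 1.60 ± 0.55 (SE; edgeR adjusted p = 0.572). Smad3 stood at 59.1 and 59.8 CPM against 34.5 to 48.0 CPM (0.46 ± 0.18 SE, edgeR adjusted p = 0.665), and Tgfbr1 at 24.5 and 20.2 CPM against 25.0 to 41.9 CPM (−0.61 ± 0.20 SE, edgeR adjusted p = 0.559). The other genes overlapped between the genotypes. Tgfb1 had a log2 difference of −0.09 with a 95% interval of −0.29 to 0.11, Smad7 of 0.07 (−0.18 to 0.31), Tgfbr2 of −0.09 (−0.35 to 0.17) and Itgav of 0.05 (−0.24 to 0.34). The intervals of these 4 genes lay close around 0. The intervals of Aldh1a2 (0.35, −0.52 to 1.22) and Ltbp3 (−0.31, −2.06 to 1.43) were wide.

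The knockout effect was then read under the label CD8. None of the 9 genes passed here either. Smad3 and Tgfb3 had higher values in both KO libraries than in all WT libraries, and Tgfb1 and Smad7 lower ones. With edgeR 0 of 9 were called, against 0.145% of all genes tested, with 2 at an unadjusted p under 0.05, and limma-voom called 0. DESeq2 called Smad3, and so did edgeR with no filter on low counts (adjusted p = 0.0279 and 0.00651). In 24% of all genes tested the groups did not overlap.

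Smad3 stood at 34.4 and 45.9 CPM in CD8 KO against 22.3 to 23.5 CPM in CD8 WT, without overlap. The log2 fold change was 0.80 ± 0.18 (SE; edgeR adjusted p = 0.0833). It was 0.58 without CD8 KO 2 (edgeR adjusted p = 1), while leaving out CD8 KO 1 gave 0.99 (0.0413). B cell transcripts were most abundant in CD8 KO 2, with a summed marker level of 2392 CPM, against 823 CPM in CD8 KO 1 and 365 to 927 CPM in CD8 WT. The red pulp macrophage sum was 427 and 439 CPM in CD8 KO against 259 to 349 CPM in CD8 WT, and their part in the value of Smad3 was not tested.

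Tgfb3 stood at 7.08 and 10.2 CPM in CD8 KO, from 203 counts, against 3.46, 3.53 and 0.852 CPM in CD8 WT, from 80 counts. Its log2 fold change was 1.72 ± 0.54 (SE; edgeR adjusted p = 0.394), and 1.44 without CD8 KO 2 (edgeR adjusted p = 1). Smad7 stood at 251 and 222 CPM against 260.1 to 292 CPM, a log2 difference of −0.21 with an interval of −0.45 to 0.02 (edgeR adjusted p = 0.807). Tgfb1 stood at 401 and 373 CPM against 424 to 436 CPM (−0.15, −0.35 to 0.05, edgeR adjusted p = 0.881). The shifts of these 2 genes were small beside their differences between the labels. Tgfbr2 (0.16), Tgfbr1 (−0.20), Itgav (−0.01), Ltbp3 (0.40) and Aldh1a2 (0.11) overlapped between the genotypes.

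**Figure D5:**
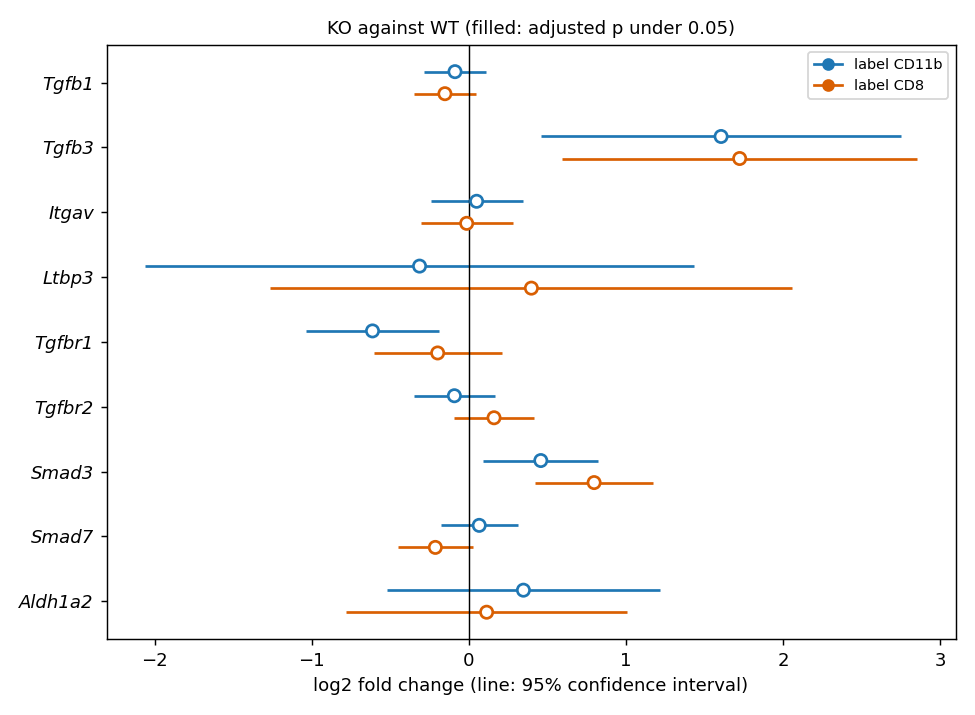
Log2 fold change of KO minus WT for the 9 genes tested, at the label CD11b (blue) and the label CD8 (orange), with lines for 95% confidence intervals of the edgeR fit. All points are open, because no adjusted p was under 0.05, and the intervals of Tgfb3 and Smad3 lie to the right of 0 at both labels while that of Tgfbr1 lies to the left of 0 at the label CD11b.

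Whether the genotype effect differed between the labels was tested directly, and none of the genes passed. With edgeR 0 of the 9 genes were called, against 0.0206% of all genes tested, and 0 reached an unadjusted p under 0.05. DESeq2 and limma-voom also called 0 of 9. The difference, label CD11b minus label CD8, was −0.12 for Tgfb3 (95% interval −1.77 to 1.54), −0.34 for Smad3 (−0.87 to 0.19), −0.41 for Tgfbr1 (−0.997 to 0.17) and 0.28 for Smad7 (−0.06 to 0.62). These intervals leave room for differences as large as the effects themselves.

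Because Tgfb3 and Smad3 were shifted the same way at both labels, the average of the 2 genotype effects was also tested. This contrast was added after the values had been seen. Smad3 was called, with a log2 difference of 0.63 ± 0.13 (SE; 1.54-fold, edgeR adjusted p = 0.0252), where 0.289% of all genes tested were called. It was higher in KO at each label, in 2 of 2 KO libraries above all 3 WT libraries of its label. This separation had been seen before the contrast was added and is no further support for the call. Genotype groups did not overlap, in either direction, in 20.5% of all genes tested at the label CD11b and 24% at the label CD8. The call ended when 1 of 6 libraries was left out, namely CD11b WT 3 (edgeR adjusted p = 0.0699), CD11b KO 1 (0.0787), CD11b KO 2 (0.0998), CD8 WT 2 (0.0613), CD8 WT 3 (0.0729) or CD8 KO 2 (0.3). Tgfb3 was at 4.58 to 10.2 CPM in the 4 KO libraries and at 0.852 to 3.53 CPM in the 6 WT libraries. Its averaged log2 fold change was 1.66 ± 0.39 (SE; 3.17-fold), which missed the threshold in edgeR (adjusted p = 0.0799) and passed it in DESeq2 (0.0158) and with no filter (0.0111). With 1 library left out, the edgeR adjusted p was 0.0662 to 0.488, the highest being that without CD8 KO 2. Tgfbr1, lower in KO at both labels, had an averaged value of −0.41 ± 0.14 (SE; edgeR adjusted p = 0.385), and Tgfb1 had −0.12 (0.668). Itgav (0.02), Ltbp3 (0.04), Tgfbr2 (0.03), Smad7 (−0.07) and Aldh1a2 (0.23) were not called either. If both subsets came from the same mice, the libraries are not all independent, which the labels do not state.

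Of the 106 other pathway genes tested, edgeR, DESeq2 and limma-voom each called 0 between KO and WT at the label CD11b, with 5 at an unadjusted p under 0.05, and 0 at the label CD8, with 10. The matrix protein gene Fn1 had a log2 difference of −1.56 at the label CD11b and −1.34 at the label CD8 (edgeR adjusted p = 0.665 and 0.476). For the averaged effect, added after the values had been seen, edgeR called 0 of the 106. DESeq2 called Fn1 there, while edgeR and limma-voom did not. At the label CD8, Pmepa1 had 0.65, Smurf2 −0.40, Id2 0.38, Cd200 0.86 and Dhrs9 0.76 (edgeR adjusted p = 0.635, 0.631, 0.553, 0.423 and 0.757). At the label CD11b, Dhrs7, a dehydrogenase of retinoids and steroids, had −0.72 and Junb −0.28 (edgeR adjusted p = 0.626 and 0.769). The 14 genes that restrain the signal or turn over its parts had a median of 0.0021 at the label CD11b and −0.13 at the label CD8. The medians over all genes tested were −0.0073 and 0.00032.

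The genes whose profile over the 10 libraries lay nearest to each member called in both subset comparisons were found by the root mean square distance of log2 CPM centred on each gene's mean, among 10830 genes. Tgfb1 was nearest to Atf7ip (0.057), Pip4k2a (0.067) and Myo1f (0.067). Smad7 was nearest to Sulf2 (0.098), Lyst (0.10) and Mdh2 (0.11), and Tgfbr2 to Smim14 (0.090), Atf6 (0.093) and Atp6v0d1 (0.094). The nearest genes of Tgfbr1 were Rps27 (0.16), Snx14 (0.18) and Cbx7 (0.19), and those of Smad3 were Hgh1 (0.14), Wbp1 (0.17) and Sav1 (0.18). None of these genes is in the 7 lists. Distances were larger for Tgfbr1 and Smad3 than for the other 3 genes.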

How the data were processed

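Per the labels' protocols, small amounts of total RNA were made into strand-specific libraries. STAR 2.5.0a and build GRCm38 are named in the submitters' processing notes. The authors deposited raw counts for each gene on either strand, with 53379 genes per library; annotation release and handling of duplicates are not given in the sources used here. The strand column used held 16.1 times the counts of the other. Reads given to no gene were 59.2% to 67.8% of reads in each library, multimapped reads (21.7% to 25.5%) included, and stayed out of all totals.

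CPM used TMM-scaled library sizes, and RPKM divided CPM by exon length from GENCODE M21. edgeR 4.0.16 (R 4.3.3) fitted 4 group means to 10 libraries and to the 14528 genes kept by filterByExpr, and adjusted p-values by Benjamini-Hochberg over them, called under 0.05. Standard errors (SE) are the log2 fold change divided by the root of its F. On simulated counts the fit found 53.6% of 2-fold changes between genotypes at the label CD11b, 36.6% at the label CD8 and 50.5% between labels in WT. These fits tested 13781, 13754 and 13778 genes, most of them unchanged. Of the genes called there, 11 of 127, 8 of 109 and 8 of 125 were unchanged ones. Alternatives were RLE scaling, no filter, at least 1 CPM in 2 libraries, counts without strand, DESeq2 1.42.0, limma-voom (limma 3.58.1), each library left out, only the libraries compared, both CD11b WT 1 and CD8 KO 2 left out, and a replicate block. The averaged genotype effect was added after the values were seen.

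The members and lists were chosen with earlier results of these data known. Each member tested was named in every comparison except the difference of the genotype effects, where only some were given. From each list, at most 4 called genes with the smallest p could be named, or 2 as values where none was called, and likeness used the 3 nearest genes with a mean of at least 1 CPM. Symbols matched for 135 of 135 pathway entries and 99 of 100 marker entries.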

Additional observations from a re-analysis of the deposited data

Results flagged for a closer look

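Signal in the strand column that was not used stood out for 3 of the genes. Over all 10 libraries, 11.1% of the counts at Tgfb3 (59 opposite-strand counts, 95% Wilson interval 8.70% to 14%), 42.6% at Ltbp3 (204 counts, 38.2% to 47.1%) and 11.6% at Smad3 (602 counts, 10.7% to 12.5%) lay on the opposite strand, against 5.85% over all genes. Tgfb3 shares 163 and 257 exon bases with the predicted genes Gm37804 and Gm48008 on that strand. The opposite-strand signal was not even across libraries. At Smad3 it was 7.09 to 10.6 CPM at the label CD11b and 0.473 to 2.70 CPM at the label CD8. At Ltbp3 the CD11b KO libraries had 62 and 38 opposite-strand counts, against 12 and 20 on the gene's own strand, and the other libraries had 3 to 27. The intervals cover counting error only. With counts of both strands, the averaged genotype effect was 1.76 for Tgfb3 and 0.58 for Smad3 on the log2 scale. Groups of 2 and 3 libraries were too small for a test of single outlying libraries.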

How the results depend on the processing

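Each of the 11 called values (5 genes between labels in each genotype and the averaged effect of Smad3) kept its direction in all alternatives run for it, 208 fits in total, and 187 of these kept the call. The lost calls not given above were those of Tgfbr2 in WT with no filter (edgeR adjusted p = 0.0697) and without both CD11b WT 1 and CD8 KO 2 (0.15), of Smad3 in KO with no filter (0.0521), and of the averaged Smad3 without those libraries (0.226) or with the replicate block (0.105). The number of members called between KO and WT at the label CD8 went from 0 to 1 with no filter, with DESeq2 and without CD8 KO 1. Between labels in WT it was 3 to 6 with 1 library left out, with 3 without CD8 WT 2.

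Of the 36 values not called, 11 alternatives gave a call and 28 turned the sign. Itgav between genotypes at the label CD11b was −0.016 with counts of both strands and −0.048 without CD11b WT 1 and CD8 KO 2, and 0.041 at the label CD8 with the replicate block. Ltbp3 at the label CD11b was 0.16 with limma-voom. Without CD11b WT 1 and CD8 KO 2, the difference of the genotype effects was −0.050 for Tgfb1, 0.23 for Tgfb3, −0.046 for Itgav and −0.11 for Aldh1a2. With 1 library left out, genotype effects at the label CD11b ranged over −0.16 to 0.24 for Itgav, −0.81 to 0.59 for Ltbp3, −0.14 to 0.012 for Tgfbr2, −0.041 to 0.16 for Smad7 and −0.24 to 0.89 for Aldh1a2. At the label CD8 they ranged over −0.058 to 0.016 for Itgav, −0.056 to 0.75 for Ltbp3 and −0.10 to 0.26 for Aldh1a2, and their difference over −0.41 to 0.30 for Tgfb3, −0.15 to 0.25 for Itgav, −1.21 to 0.20 for Ltbp3 and −0.35 to 0.77 for Aldh1a2. Aldh1a2 between labels ranged over −0.19 to 0.56 in WT and −0.0027 to 1.01 in KO. The cause was not tested.

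Over all genes, 21 were called between genotypes at the label CD11b (42 with DESeq2, 71 with no filter, 14 to 29 with 1 library left out), 21 at the label CD8 (54, 142, and 7 to 53) and 3 for their difference (11, 41, and 3 to 8), and 42 for the averaged effect (91, 175, and 17 to 77). With limma-voom there were 37 at the label CD8 and 6 for the difference, with counts of both strands 6 for the difference, and with only the libraries compared 13 at the label CD11b and 63 at the label CD8. Without CD11b WT 1 and CD8 KO 2 there were 13 at the label CD11b, and with the replicate block 28 for the difference. Deviations from group means correlated at 0.025 to 0.055 between labels for libraries with the same number. For libraries with other numbers the values were −0.052 to −0.00052. Deviations cancel within a group, so positive values for some pairs force negative values for others. In KO, with 2 libraries per group, the same value of 0.052 came with both signs. The gap between the ranges therefore cannot show whether the numbers pair mice. The values were small, and the labels do not say whether the numbers pair mice. With the replicate block 6 members were called between labels in WT, Itgav being added. Depth limits Itgb8, Ltbp3 and Tgfb3, which had 23, 275 and 473 counts in all.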
